A study of Mus musculus with 9 samples.

Results

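Cd52, Cwh43, Bsph1, Bsph2, Clu, Mfge8, Cuzd1, Itm2b and Spam1 are listed together as genes of sperm-surface, secreted or anchor-remodelling proteins. The grouping is a label, and a role of each on sperm was not tested. These genes were followed along the mouse epididymis. They are 9 listed symbols of the 24059 in the count table, and all 9 were found there. The members were chosen by their measured abundance and segment differences in these same libraries, so the members' levels and changes are given as a description and carry no test. Bulk RNA was sequenced from 3 segments of the epididymis, the duct in which sperm leaving the testis mature and are stored: the caput (proximal), the corpus (middle) and the cauda (distal). Each segment had 3 libraries, and every library carries the same strain (C57BL/6J), genotype (wild type) and age (9 months), with no transgene or treatment named. Neither pooling of mice nor the use of different mice for the libraries within a segment is stated, so p-values measure only the spread between these libraries, which may be technical. In bulk tissue, fewer cells of a type and less RNA per cell cannot be told apart.

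Sperm leave the testis unable to fertilise, and during transit the epididymal epithelium, region by region, secretes proteins that bind, insert into or replace components of the sperm surface. Some of these arrive on a glycosylphosphatidylinositol (GPI) anchor, a glycolipid attached to the end of the protein, which lets a secreted protein be moved onto the sperm membrane. Others are soluble and bind sperm lipids, as the binder of sperm proteins and lactadherin do, or act as extracellular chaperones, as clusterin does. The label "abundant" held for some members only. Cd52, Clu, Mfge8, Cuzd1 and Itm2b each had a highest segment mean of 5933 CPM (counts scaled to a common library total) or more. Cwh43, Bsph2 and Bsph1 were lower, with highest segment means of 1069, 416.9 and 170 CPM, and Spam1 had 4 counts in all 9 libraries together. The libraries hold RNA, so none of these values is a protein level on sperm.

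Bsph1 and Bsph2 are a pair of related genes with opposite segment patterns. Their last 240 coding bases (positions 163 to 402 and 157 to 396) are printed first. The whole coding sequence of Cd52, whose product is very short, follows them (all from GENCODE M21 transcripts, mm10). Capitals in the Bsph pair mark the longest run of letters that both share, and no letters of Cd52 are in capitals.
Bsph1: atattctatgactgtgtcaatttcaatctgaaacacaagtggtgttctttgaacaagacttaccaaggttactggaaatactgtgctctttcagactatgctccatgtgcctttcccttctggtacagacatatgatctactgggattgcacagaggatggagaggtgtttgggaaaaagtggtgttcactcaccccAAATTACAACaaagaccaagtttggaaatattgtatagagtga
Bsph2: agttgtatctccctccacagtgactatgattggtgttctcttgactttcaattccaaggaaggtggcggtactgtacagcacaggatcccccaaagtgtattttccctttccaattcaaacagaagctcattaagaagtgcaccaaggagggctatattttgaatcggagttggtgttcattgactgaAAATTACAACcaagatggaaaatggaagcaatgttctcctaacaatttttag
Cd52: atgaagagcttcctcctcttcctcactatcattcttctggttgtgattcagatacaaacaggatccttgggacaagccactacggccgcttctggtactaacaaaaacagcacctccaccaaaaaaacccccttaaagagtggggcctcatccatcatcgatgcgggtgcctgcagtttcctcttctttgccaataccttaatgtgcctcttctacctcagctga
In full, the 3 coding sequences are 402, 396 and 225 bases long. Aligned end to end, the full Bsph coding sequences had the same base in 228 of 372 ungapped columns (61.3%), and their longest shared run was 10 bases, shorter than the 36-base reads.

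Upstream sequence of 250 bases before the annotated start is shown for 3 members that differ in where they were high: Bsph2 and Cwh43, which were at or near 0 in the caput, and Mfge8, which was highest there (RefSeq, GRCm38.p6). Capitals mark matches, on either strand, to any of 4 motifs. AGAACA is a half-site of the androgen or glucocorticoid receptor. TATAAA is the TATA box, CCAAT the CCAAT box and GGGCGG the GC box.
Bsph2, chr7:13571068-13571317, minus strand: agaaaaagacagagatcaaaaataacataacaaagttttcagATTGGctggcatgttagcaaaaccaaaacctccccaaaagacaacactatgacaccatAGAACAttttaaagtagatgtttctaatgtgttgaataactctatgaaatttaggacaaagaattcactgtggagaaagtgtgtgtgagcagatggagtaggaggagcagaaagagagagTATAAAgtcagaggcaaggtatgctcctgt
Cwh43, chr5:73405828-73406077, plus strand: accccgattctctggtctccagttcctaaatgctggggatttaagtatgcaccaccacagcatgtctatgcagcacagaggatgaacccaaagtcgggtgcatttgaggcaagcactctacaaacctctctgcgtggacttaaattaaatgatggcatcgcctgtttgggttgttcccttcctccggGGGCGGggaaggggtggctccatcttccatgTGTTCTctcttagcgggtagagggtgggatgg
Mfge8, chr7:79149061-79149310, minus strand: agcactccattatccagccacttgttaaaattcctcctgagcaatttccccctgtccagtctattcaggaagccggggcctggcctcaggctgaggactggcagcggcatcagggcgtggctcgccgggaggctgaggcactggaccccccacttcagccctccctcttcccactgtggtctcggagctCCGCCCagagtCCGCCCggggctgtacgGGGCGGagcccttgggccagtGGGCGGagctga
Bsph2 had AGAACA 150 bases, TATAAA 30 bases and CCAAT 208 bases before the start. Cwh43 had AGAACA 32 bases and GGGCGG 63 bases before it. Mfge8 had 4 GGGCGG matches, at 61, 50, 33 and 12 bases, and the highest GC content of these 3, at 65.2% against 37.2% for Bsph2 and 52.8% for Cwh43. Promoters of 6 members were matched by symbol (also Itm2b, Cuzd1 and Spam1); Itm2b held 3 GGGCGG matches, and Cuzd1 and Spam1 held none of the 4 motifs. Over 32851 mouse promoters of the same length, 16.1% held AGAACA, 12.4% TATAAA, 33.8% CCAAT and 32.7% GGGCGG, and the median GC content was 52.4%. No match overlapped another in the printed sequences, and a match is a description of the sequence only.

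Library totals ran from 2600061 to 6076479 counts, with 3013470 to 3946335 in the caput, 2600061 to 6076479 in the corpus and 5095298 to 6072094 in the cauda. Of the 24059 symbols, 14168 passed the filter on low counts and were tested, and 8 of the 9 members were among them (all but Spam1). A list of 9 caput genes was written with earlier results of these data known, so it is no independent check of the segment labels. It summed to between 23426 and 27557 CPM in the caput, 10.2 to 11.98 in the corpus and 15.6 to 18.7 in the cauda. No such list was written for the corpus or the cauda. Smooth muscle markers (7 genes) summed to 2028 to 2146 CPM in the caput, 261.8 to 828.5 in the corpus and 2932 to 5418 in the cauda; Actg2 alone gave 1243 CPM of the caput mean and 17.2 of the corpus mean, and without it the sums were 665 to 991.3, 255.7 to 804.1 and 2792 to 5143 CPM. Of 8 vas deferens and accessory gland markers, Pbsn was at 0 in every library, and the sum was 0.264 to 0.675 CPM in the caput, 148 to 161 in the corpus and 222 to 286 in the cauda. Akr1b7 gave 154.3 CPM of the corpus mean and was lower in the cauda, at 35.9, while Svs1 gave 201.7 CPM of the cauda mean and was at 0.856 in the corpus. Epithelial markers summed to 61612 to 68621 CPM in the caput, 48722 to 57811 in the corpus and 71997 to 83135 in the cauda. Their members differed: Crisp1 was at 923.7, 26212 and 42298 CPM in caput, corpus and cauda, and Gpx5 at 48958, 23.2 and 305.7. Macrophage sums were 193.2 to 215.8, 103.7 to 148.1 and 143.1 to 196.3 CPM in the same order. Clear cell sums were 441.7 to 462.7, 606.1 to 628 and 386.1 to 419.7 CPM. Basal cell sums were 292.3 to 356.5, 371.8 to 406.8 and 285.2 to 318.4 CPM. Over all libraries, fibroblast sums ran from 396.6 to 1226 CPM and endothelial sums from 74.8 to 143.6.

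Each comparison shares libraries with the other 2, since every segment enters 2 of them. The libraries of the compared segments did not overlap for 7 of the 8 tested members between corpus and caput, for 7 of 8 between cauda and corpus, and for 8 of 8 between cauda and caput. Among all tested genes the same was true of 63.5%, 50.1% and 62.7%. The fit called 7, 7 and 8 of the 8 tested members, beside 57.7%, 39.2% and 54.7% of all tested genes. Nothing is read from the members' counts, because their patterns were known when they were listed. Folds below are segment against segment from the fit, whose log2 change is given with its standard error (SE). Where a segment had 3 counts or fewer, no fitted fold is given; the fold is then a ratio of counts pooled over each segment's 3 libraries and divided by their pooled TMM-scaled totals, so it differs slightly from the ratio of mean CPM. With no count, it is a lower bound taken against 3 counts over the segment.

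**Figure D1:**
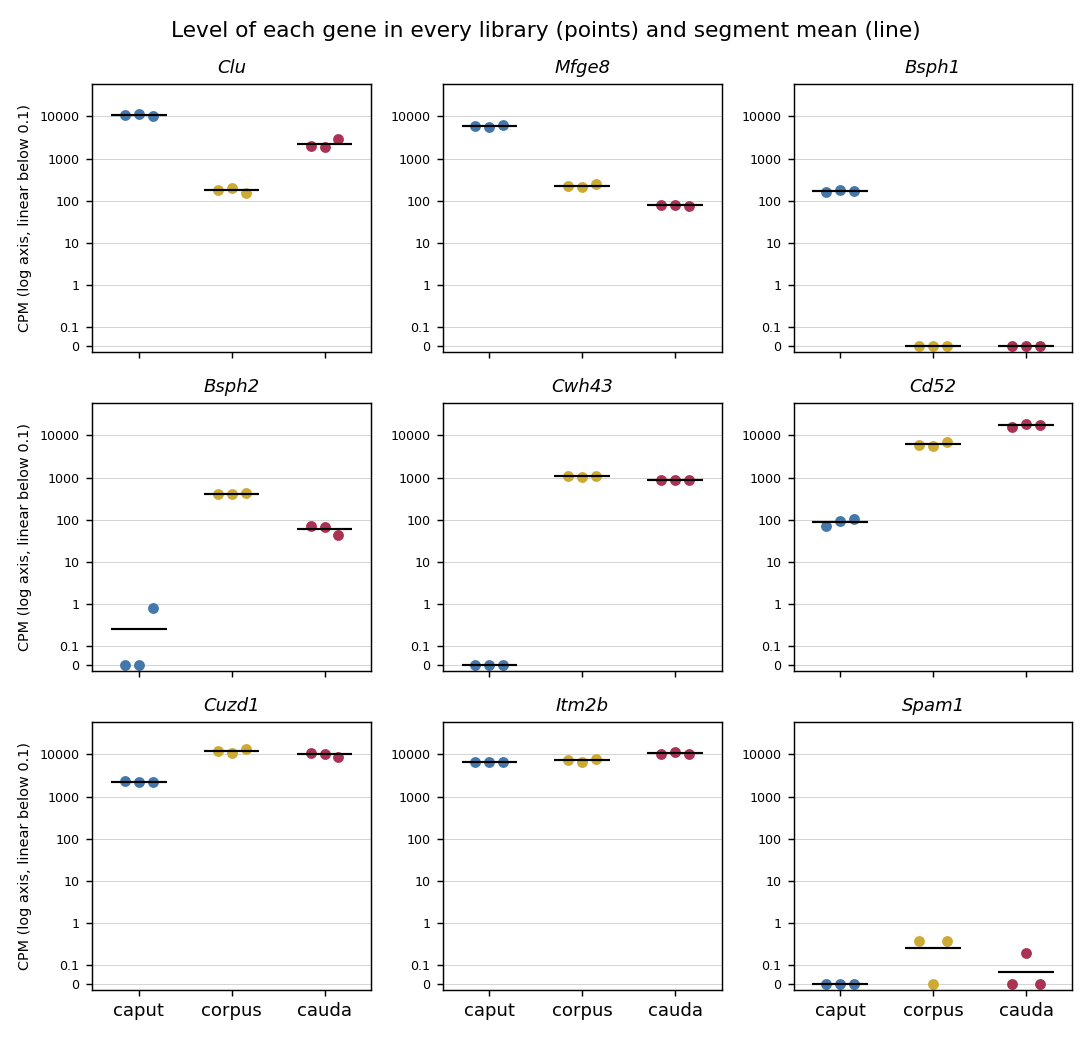
CPM of each of the 9 genes in every library (points; 3 per segment) with the segment mean (line), on an axis that is logarithmic above 0.1 CPM and linear below it. Clu, Mfge8 and Bsph1 were highest in the caput, Bsph2, Cwh43 and Cuzd1 in the corpus, Cd52 and Itm2b in the cauda, and the highest Spam1 point lies at 0.377 CPM.

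Cd52, a short GPI-anchored glycopeptide known both from lymphocytes and as a major product of the distal epididymis that is moved onto sperm, had the highest level of the 9 in the corpus and the cauda per length. It stood at 69.5, 95.1 and 104 CPM in the 3 caput libraries, 5927, 5709 and 6906 CPM in the corpus and 16048, 18859 and 18171 CPM in the cauda. Every corpus library lay above every caput library, and every cauda library above every corpus library. The corpus mean was 68.7-fold the caput mean (log2 change 6.10, SE 0.16), and the cauda mean was 2.86-fold the corpus mean (log2 change 1.52, SE 0.12). Per length, Cd52 was 311th of all symbols by mean RPKM (counts scaled to gene length and library depth) in the caput (97.2 ± 17.7 SD, n = 3), 2nd in the corpus (6090 ± 326) and 1st in the cauda (18364 ± 1479). A list of 14 leukocyte markers, the other cells known for Cd52, summed to 29.6 to 31.1 CPM in the caput, 19.9 to 33.3 in the corpus and 31.2 to 38.4 in the cauda. Ptprc, the pan-leukocyte antigen CD45, was at 10.8 ± 2.31 CPM in the caput, 7.85 ± 1.47 in the corpus and 11.6 ± 1.67 in the cauda. Of the 5 leukocyte markers that were tested, 1 was higher and 1 lower in the corpus than in the caput (29.5% and 28.2% of all tested genes were), and 1 was lower in the cauda than in the corpus (20.4%). From caput to cauda Cd52 was higher by a log2 change of 7.62 (SE 0.17).

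Cwh43, a mammalian relative of the yeast protein that exchanges the lipid of GPI anchors for ceramide, was absent from the caput counts. It had 0 counts in each of the 3 caput libraries, 1065, 1021 and 1122 CPM in the corpus and 900.4, 896.4 and 858.6 CPM in the cauda. The corpus level was at least 3540-fold higher and the cauda level at least 2940-fold higher than the caput's. Within the corpus and the cauda the libraries kept close together, with SDs of 50.4 and 23.1 CPM (n = 3 each), and the cauda libraries all lay below the corpus libraries. That step was small (log2 change -0.27, SE 0.07). Cd52 and Cwh43 were thus both higher in the corpus than in the caput, while from corpus to cauda Cd52 was higher and Cwh43 lower.

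Spam1, the GPI-anchored sperm hyaluronidase PH-20, was at or under the counting floor everywhere. It had no count in the caput, 1, 0 and 2 counts in the corpus libraries, and 0, 1 and 0 in the cauda libraries. A count of 0 over the caput libraries allows up to 0.301 CPM, and no fold is given because all segments were at or under 3 counts. The related hyaluronidase genes Hyal5 and Hyal6 were as low, with 0, 1 and 4 counts and with 2, 2 and 0 counts in caput, corpus and cauda. Sperm and male germ cell markers (14 genes) were not at the floor. They summed to 182.6 to 207.7 CPM in the caput, 492 to 539.6 in the corpus and 697.3 to 1024 in the cauda. Of 13 tested, 12 were higher in the corpus than in the caput, beside 29.5% of all tested genes. Acr, which encodes the acrosomal protease acrosin, was the lowest of the 14 markers, at 0.866, 0.457 and 0 CPM in caput, corpus and cauda.

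Genes that build the GPI anchor were more often higher than lower in the corpus against the caput. Of 25 tested genes of anchor synthesis and attachment, 12 rose and 2 fell by edgeR's quasi-likelihood test at an adjusted p of 0.05, with a median log2 change of 0.35 against 0.00 over all tested genes, of which 29.5% rose and 28.2% fell. Piga, the catalytic subunit of the first step of anchor synthesis, rose most: 22.7 ± 2.05 CPM in the caput, 166 ± 14.6 in the corpus and 129 ± 6.15 in the cauda (corpus against caput, log2 change 2.86, SE 0.10, adjusted p = 5.22e-11). Dpm3, a subunit of the dolichol-phosphate mannose synthase and the highest of the list by RPKM averaged over the 9 libraries, rose less (log2 change 0.39, SE 0.12, adjusted p = 0.0108). From corpus to cauda 1 gene rose and 7 fell, where 18.8% and 20.4% of all tested genes did so; this count of 8 came down to 3 with DESeq2 or on RPKM, and to between 4 and 9 when single libraries were left out, as low as 4 without corpus replicate 3, cauda replicate 1 or cauda replicate 2. Between cauda and caput 8 rose and 6 fell (27.5% and 27.2% of all tested genes), and 9 were called without caput replicate 2.

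Of 15 tested genes that remodel, export or release the anchor, 7 were higher and 4 lower in the corpus than in the caput, beside 29.5% and 28.2% of all tested genes. Between cauda and corpus 7 were higher and 3 lower (18.8% and 20.4% of all), and between cauda and caput 7 were higher and 2 lower (27.5% and 27.2%). Gdpd5, a membrane phosphodiesterase known to cleave GPI-anchored proteins, was at 3.14 ± 1.58 CPM in the caput, 106.5 ± 2.79 in the corpus and 173.8 ± 14.0 in the cauda (corpus against caput, log2 change 5.04, SE 0.18, adjusted p = 5.34e-11). Pgap3 and Pgap2, which exchange the fatty acid of the anchor, also rose from caput to corpus, from 31.6 to 106.6 CPM and from 589.4 to 1001 CPM (adjusted p = 3.15e-08 and 3.10e-07). Ace, the angiotensin-converting enzyme, which has also been reported to release GPI-anchored proteins, went the other way. It fell from 948.3 ± 107.4 CPM in the caput to 109.2 ± 5.40 in the corpus and 42.0 ± 2.91 in the cauda (log2 changes -3.12 and -1.38, adjusted p = 1.22e-11 and 2.16e-07).

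**Figure D2:**
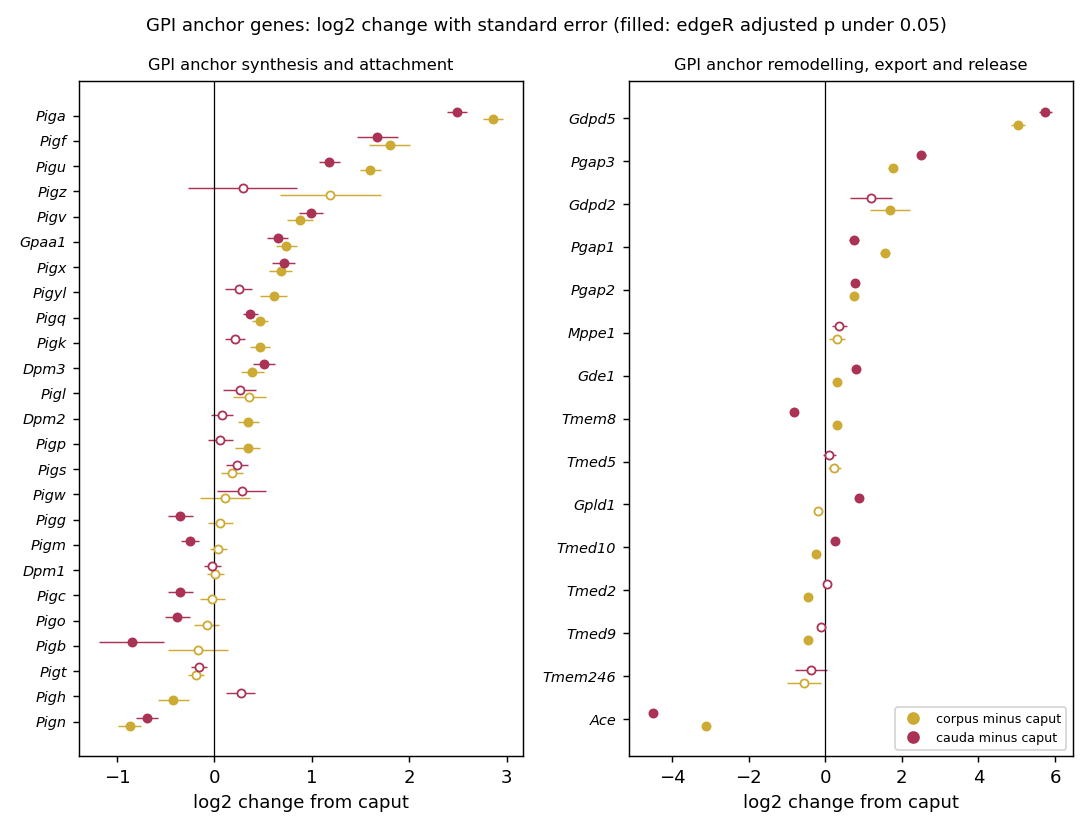
Log2 change from the caput, with its standard error, of 25 genes of GPI anchor synthesis (left) and 15 of its remodelling, export and release (right); yellow is corpus against caput, red is cauda against caput, and filled points have an edgeR adjusted p under 0.05. Piga (2.86 in the corpus) and Gdpd5 (5.04) stand at the top of their panels, and Ace (-3.12) at the bottom of its panel.

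Other GPI-anchored surface proteins did not share 1 pattern. Of 13 tested genes, 5 rose and 5 fell from caput to corpus (29.5% and 28.2% of all tested genes). From corpus to cauda 6 rose and 2 fell (18.8% and 20.4% of all). In the cauda against the caput 8 were higher and 3 lower (27.5% and 27.2% of all). Car4, a GPI-anchored carbonic anhydrase, peaked in the corpus, at 1.23 ± 0.404 CPM in the caput, 933.8 ± 53.8 in the corpus and 28.7 ± 3.19 in the cauda (adjusted p = 5.66e-14 up and 3.94e-12 down). Alpl, the tissue-nonspecific alkaline phosphatase, and Folr1, a folate receptor, were caput genes: Alpl fell from 322.9 to 10.9 CPM and Folr1 from 18.9 to 0.239 CPM in the corpus (adjusted p = 1.82e-11 and 1.40e-07). Treh, the brush-border trehalase, was at 0 in the caput, 0.258 ± 0.448 CPM in the corpus and 17.0 ± 7.62 CPM in the cauda (cauda against corpus, adjusted p = 3.45e-05). Cd59b, a complement inhibitor with a close paralogue among which reads may have been divided, was lowest in the corpus at 0.395 CPM, against 2.40 in the caput and 3.66 in the cauda. Among 7 tested hyaluronidase and hyaluronan genes, 1 rose and 3 fell from caput to corpus. From corpus to cauda 2 rose and 1 fell (1 and 1 without a scaling factor), and 0 rose and 2 fell between cauda and caput. The shares of all tested genes are those given above in the same order. Hyal2, itself a GPI-anchored hyaluronidase, fell from 30.3 to 18.0 CPM from caput to corpus (adjusted p = 0.00170), and Cemip, a hyaluronan-binding depolymerisation factor, was at 6.98, 0.218 and 6.66 CPM in the 3 segments in order.

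Bsph1 and Bsph2, binder of sperm proteins with fibronectin type II domains that attach to choline phospholipids of the sperm membrane, occupied different segments. Bsph1 was at 159.3, 177.8 and 172.8 CPM in the caput libraries and had no count in any of the 6 other libraries. The caput level was at least 820-fold above the corpus and at least 959-fold above the cauda. Bsph2 was at 0, 0 and 0.792 CPM in the caput (3 counts, all in replicate 3), 403.7, 404.7 and 442.4 CPM in the corpus and 70.9, 67.9 and 44.4 CPM in the cauda. Its corpus level was 1390-fold its caput level, with a 95% counting interval of 475 to 6740, and its cauda level 201-fold, with an interval of 68.6 to 976; these intervals are exact binomial (Clopper-Pearson) and cover counting error only. From corpus to cauda it was lower by a log2 change of -2.78 (SE 0.16). No library held more than 3 counts of both genes, so that the pair was split by segment: Bsph1 in the caput, Bsph2 in the corpus and, at a lower level, in the cauda. Both lie on chromosome 7. Bsph1 is at 13450841 to 13473449 on the plus strand and Bsph2 at 13554864 to 13571067 on the minus strand. They are 81.4 kb apart, with only Gm44254 and Bsph2-ps annotated between them. Bsph1 and Bsph2 shared no run longer than 10 bases in their full coding sequences. None of the 36-base windows of their transcripts occurs in another gene.

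Other genes with fibronectin type II domains were counted beside all tested genes. Of 9 tested, 2 rose and 1 fell from caput to corpus (29.5% and 28.2% of all tested genes). From corpus to cauda 3 rose and 1 fell (18.8% and 20.4%). In the cauda against the caput 2 were higher and 2 lower (27.5% and 27.2%). The first of these counts, 3 genes, was 5 on RPKM and 5 with the replicate number as a block. Hgfac, the activator of hepatocyte growth factor, fell from 114.8 ± 10.8 CPM in the caput to 0.767 ± 0.678 in the corpus and rose to 16.5 ± 8.28 in the cauda (adjusted p = 5.70e-09 and 2.04e-05). Sel1l, part of the endoplasmic reticulum degradation machinery and the highest of the list by RPKM averaged over the 9 libraries, was at 183.9, 160.3 and 152.4 CPM and did not pass the test between neighbouring segments (adjusted p = 0.113 and 0.586), but was lower in the cauda than in the caput (log2 change -0.27, SE 0.10, adjusted p = 0.0353).

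Clu, which encodes clusterin, a secreted chaperone glycoprotein found on sperm and in epididymal fluid, was high in the caput, low in the corpus and intermediate in the cauda. The caput libraries stood at 10984, 11551 and 10312 CPM, the corpus libraries at 183.5, 201 and 151.2 CPM and the cauda libraries at 2018, 1883 and 2908 CPM. No segment overlapped another. The corpus was lower than the caput by a log2 change of -5.94 (SE 0.18), and the cauda was higher than the corpus by 3.67 (SE 0.16), a 12.7-fold difference. Cauda replicate 3 was the highest of its segment, and without it the cauda mean was 1951 CPM in place of 2270 ± 557 (SD). Smooth muscle markers were ordered like Clu in the corpus, at 693.2, 828.5 and 261.8 CPM in replicates 1 to 3. They were highest in cauda replicate 3, at 5418 CPM. Cauda replicates 1 and 2 went the other way, with the markers at 2932 and 3340 CPM and Clu at 2018 and 1883 CPM. The same muscle marker orders held without Actg2. Fibroblast markers (6 genes) summed to 548.6, 1074 and 396.6 CPM in corpus replicates 1 to 3, and to 1204, 1031 and 1226 CPM in the cauda. Clu had the same order of replicates in both segments. Caput fibroblast sums were 691.2, 844.4 and 699.3 CPM, with replicates 1 and 3 ordered unlike Clu. In the caput, Clu was 4.82-fold higher than in the cauda while the muscle markers, at 2028 to 2146 CPM, were lower than in every cauda library. The part of muscle or fibroblast RNA in the Clu level of the corpus and cauda was not tested. In the corpus and the cauda, the summed caput markers were at 0.0430% and 0.0687% of their caput sum. Clu was at 1.63% and 20.7% of its caput mean. Single caput markers differed: Lcn8, the highest, was at 5144, 0.427 and 0.411 CPM in caput, corpus and cauda. Ros1, the lowest in the caput, was at 319.7, 4.41 and 3.93 CPM. Carry-over of caput RNA was not tested.

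**Figure D3:**
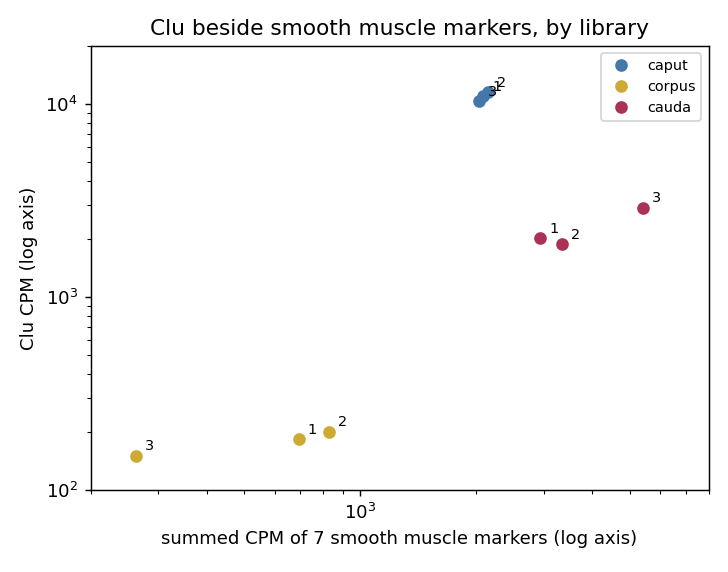
CPM of Clu (vertical, log axis) against the summed CPM of 7 smooth muscle markers (horizontal, log axis) in the 9 libraries, coloured by segment and numbered by replicate. Caput libraries lie at 10312 CPM of Clu or more with muscle sums of 2028 to 2146. Cauda replicate 3 has both the highest muscle sum (5418 CPM) and the highest Clu (2908 CPM) of the cauda. Cauda replicate 2 has a higher muscle sum but a lower Clu than cauda replicate 1.

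Clusterin's receptors and their endocytic partners fell more often than they rose from caput to corpus: 6 of 9 tested genes fell and 1 rose, beside 28.2% and 29.5% of all tested genes, with a median log2 change of -1.78. Lrp2, megalin, the large endocytic receptor for clusterin, was the gene that rose, from 38.3 ± 2.36 CPM in the caput to 486.7 ± 82.3 in the corpus and 931.5 ± 56.1 in the cauda (adjusted p = 4.11e-11 and 1.32e-05). Lrp8 and Vldlr, smaller receptors of the same family, fell from 24.4 and 86.6 CPM in the caput to 2.33 and 23.2 CPM in the corpus (adjusted p = 3.17e-07 and 6.96e-07). Sort1, sortilin, was the highest per length, at 1549, 1589 and 1197 CPM; it did not pass the test between caput and corpus (adjusted p = 0.827) and fell between corpus and cauda (log2 change -0.41, SE 0.13, adjusted p = 0.0230). From corpus to cauda 3 of the 9 rose and 3 fell (18.8% and 20.4% of all), and the cauda was higher than the caput for 2 and lower for 5 (27.5% and 27.2%).

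Mfge8, lactadherin, a secreted protein that binds phosphatidylserine on membranes and integrins on cells and is known to coat sperm in the epididymis, was a caput gene that declined in both steps. Its libraries stood at 5902, 5574 and 6324 CPM in the caput, 220.9, 215.8 and 243.7 CPM in the corpus, and 80.6, 80.5 and 74.4 CPM in the cauda. The segments did not overlap, and the spread within each was small. The caput mean was 26.1-fold the corpus mean (log2 change -4.71, SE 0.09) and 75.6-fold the cauda mean (-6.24, SE 0.10), and the cauda was lower than the corpus by -1.53 (SE 0.08). Unlike Clu, Mfge8 was lower in the cauda than in the corpus. Its level was 3.82% of the caput mean in the corpus and 1.32% in the cauda. The summed caput markers were at 0.0430% and 0.0687% of their caput sum. Ros1 alone, at 319.7, 4.41 and 3.93 CPM in caput, corpus and cauda, kept a larger part than that sum.

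Receptors and partners of phosphatidylserine recognition changed in both directions. Of 10 tested genes, 3 rose and 4 fell from caput to corpus (29.5% and 28.2% of all tested genes). From corpus to cauda 4 rose and 3 fell (18.8% and 20.4% of all), or 2 and 3 without a scaling factor. In the cauda against the caput 1 was higher and 3 lower (27.5% and 27.2% of all). Tyro3, a receptor kinase, fell from 12.3 ± 4.62 CPM in the caput to 0.862 ± 0.421 in the corpus (adjusted p = 1.47e-05), and Itgb8, an integrin subunit, from 3.26 ± 0.641 to 0.667 ± 0.324 (adjusted p = 0.00760). Gas6, the soluble bridge between phosphatidylserine and these kinases and the highest of the list per length, was at 116.4, 99.4 and 132 CPM and rose between corpus and cauda (adjusted p = 0.0171).

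Cuzd1, a membrane protein with CUB and zona pellucida domains, was among the highest transcripts in the corpus and cauda. It stood at 2384, 2201 and 2238 CPM in the caput, 11775, 11115 and 13384 CPM in the corpus, and 10711, 10462 and 8857 CPM in the cauda. The caput libraries were all lower, whereas the corpus and cauda libraries were close, with the lowest corpus library at 11115 CPM just above the highest cauda library at 10711 CPM. The corpus was 5.32-fold the caput (log2 change 2.41, SE 0.10), and the cauda differed from the corpus by -0.27 (SE 0.10). Cauda replicate 3 was the lowest of its segment, and without it the cauda mean was 10587 CPM in place of 10010. Per length Cuzd1 was 46th by mean RPKM in the caput, 5th in the corpus and 10th in the cauda.

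Genes of the same domain families were mostly low, and 8 of 19 were tested. In the corpus against the caput 2 rose and 3 fell (29.5% and 28.2% of all tested genes). Without a scaling factor these were 3 and 2, and 8 were called with no filter on low counts. In the cauda against the corpus 3 rose and 1 fell (18.8% and 20.4% of all). Against the caput, 4 rose and 3 fell in the cauda (27.5% and 27.2% of all). Tecta, alpha-tectorin, was at 99.7 ± 3.63 CPM in the caput, 0 in the corpus and 0.124 ± 0.108 CPM in the cauda. Cdcp1, a CUB domain surface protein, rose from 54.8 to 110.6 CPM from caput to corpus and fell to 58.6 CPM in the cauda (adjusted p = 0.000212 and 0.000577). Pdgfd, a growth factor with a CUB domain, was at 14.4, 2.16 and 7.75 CPM, and Neto2, a CUB domain receptor subunit, rose from 1.78 to 5.52 and 10.9 CPM (adjusted p = 0.00310 and 0.00826).

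Itm2b, a type II membrane protein cut by furin and ADAM10 and present in most tissues, varied least of the 8 tested members. The caput libraries were at 6540, 6788 and 6683 CPM, the corpus libraries at 7327, 6659 and 7693 CPM, and the cauda libraries at 10383, 11404 and 10292 CPM. Caput and corpus overlapped, and their difference was 0.12 (log2, SE 0.08) from counts and -0.03 on RPKM, so no direction is read from it. All cauda libraries were above the rest, by 1.48-fold over the corpus (log2 change 0.57, SE 0.08) and 1.60-fold over the caput (0.68, SE 0.08). Of 10 tested genes of the ITM2 family and its processing, 4 rose and 5 fell from caput to corpus (29.5% and 28.2% of all tested genes). From corpus to cauda 5 rose and 2 fell (18.8% and 20.4% of all), or 3 and 4 without a scaling factor. In the cauda against the caput 2 were higher and 3 lower (27.5% and 27.2% of all). The 7 calls from corpus to cauda were 4 without corpus replicate 2 or without cauda replicate 3. Itm2c, the closest of the family in level, was at 402.9 ± 6.44 CPM in the caput, 217.9 ± 20.7 in the corpus and 453.1 ± 62.5 in the cauda (adjusted p = 5.90e-06 down and 2.44e-06 up).

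Between genes, levels are set side by side per length, as RPKM. In the caput the order was Clu (3320 ± 287), Itm2b (2062 ± 76.8), Mfge8 (1526 ± 53.9), Cuzd1 (552 ± 32.8), Bsph1 (113 ± 6.85) and Cd52 (97.2 ± 17.7), with Bsph2, Cwh43 and Spam1 at or near 0. Only Bsph1 and Cd52 overlapped as neighbours in that order. In the corpus Cd52 (6090) led, followed by Cuzd1 (2657 ± 130), Itm2b (2024 ± 87.4), Bsph2 (390.5 ± 2.97), Cwh43 (195.7 ± 3.34), Mfge8 (53.0 ± 0.894) and Clu (49.3 ± 9.08). The last 2 overlapped, although Mfge8 was below Clu in the caput by a wide margin. In the cauda the order was Cd52 (18364), Itm2b (3150 ± 143), Cuzd1 (2315 ± 210), Clu (657 ± 170), Cwh43 (170.3 ± 2.88), Bsph2 (60.0 ± 13.7) and Mfge8 (19.3 ± 0.665), and no neighbours overlapped. All 9 genes together took 2.56%, 2.63% and 2.48% of the counts in the caput libraries, 2.76%, 2.69% and 2.97% in the corpus and 3.99%, 4.28% and 4.10% in the cauda. The cauda libraries were all higher, and the genes behind the sum changed. Clu with Itm2b and Mfge8 made up most of it in the caput, and Cuzd1 with Itm2b and Cd52 in the corpus. In the caput Itm2b took 0.642% to 0.676% of all counts and Mfge8 0.555% to 0.607%. Cd52 was the largest item in the cauda, at 1.59% to 1.85% of all counts.

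**Figure D4:**
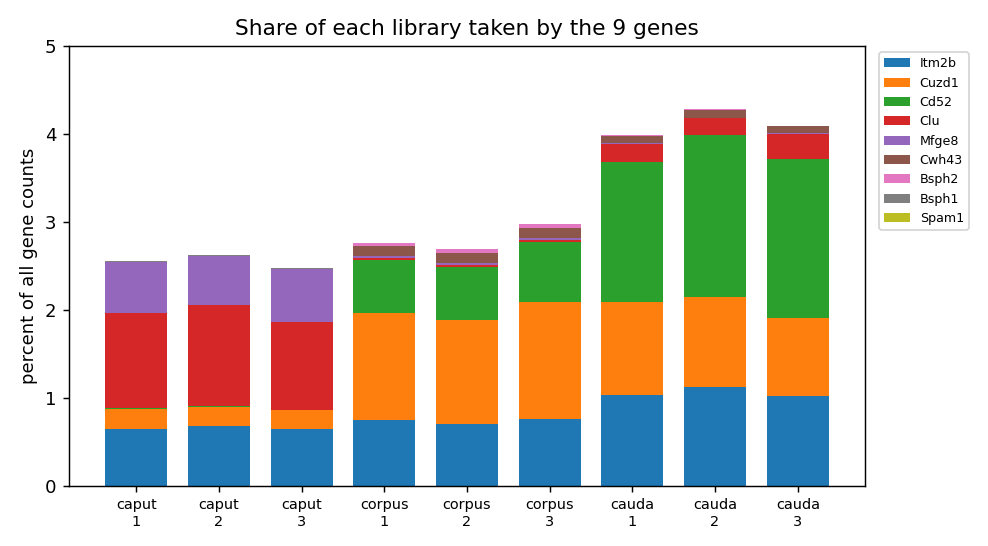
Percent of all gene counts taken by the 9 genes in each library, stacked by gene. The stack is 2.48% to 2.63% in the caput, 2.69% to 2.97% in the corpus and 3.99% to 4.28% in the cauda. Clu, Itm2b and Mfge8 fill most of the caput bars, and Cd52 is the largest block of the cauda bars.

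The genes most like each member were sought among 11213 genes by the root-mean-square difference of log2 CPM over the 9 libraries, each gene centred on its own mean. The measure is in log2 units, is pulled in for low genes by a prior count of 2, and says nothing of shared function. Nearest to Cd52 were Cyp4a12b (0.24), Rab3c (0.27) and Defb9 (0.33). Nearest to Bsph1 were 2810459M11Rik (0.13), Krt23 (0.17) and Defb41 (0.23), and nearest to Bsph2 were Pate2 (0.55), Glb1l3 (0.65) and Gldc (0.70). Clu was closest to Gpx6 (0.37), Ggt1 (0.38) and Slc28a3 (0.48), and Mfge8 to Klhl34 (0.34), Rbm11 (0.39) and Shc4 (0.43). For Cuzd1 they were Lins (0.10), Lrrc8e (0.11) and Efr3b (0.13), and for Itm2b, whose range is small, Leprotl1 (0.05) and H2afv (0.05). Cwh43 had the most distant neighbours, Ltf (0.58), Ly6f (0.83) and Defb28 (1.11).

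On mm10 (GENCODE M21) the 9 genes lie on 5 chromosomes. Chromosome 7 holds 4 of them (and 9.22% of protein-coding genes): both Bsph genes, Mfge8 at 79133768 to 79149060 and Cuzd1 at 131308554 to 131322292, the last 2 on the minus strand. Chromosome 14 holds Clu at 65968483 to 65981547 (plus strand) and Itm2b at 73362226 to 73385289 (minus strand). Cwh43 lies on chromosome 5 at 73406075 to 73453435 and Spam1 on chromosome 6 at 24791188 to 24801048, both on the plus strand. Cd52, on chromosome 4 at 134082448 to 134095082 on the minus strand, shares 172 exon bases with Crybg2 on the opposite strand, so reads there may belong to either gene. Crybg2, named Aim1l in the count table, was at 1.82, 6.08 and 1.50 CPM in caput, corpus and cauda, and 115 of 1150 windows of 36 bases over all annotated Cd52 transcripts also occur in Crybg2. In the 514-base coding transcript alone, 0 of 479 windows do. Cuzd1 overlaps Fgfr2 on the same strand with 0 shared exon bases.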

How the data were processed

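Gene counts and RPKM values of 9 libraries were deposited by the authors in 1 table; the count columns hold raw counts per gene symbol, and the RPKM columns reads scaled to gene length and depth, per the file headers. Per the labels' protocols, stranded mRNA libraries were sequenced as single 36-base reads. CASAVA 1.8.2, FastQC 0.11.2, Bowtie2 2.2.0 and mm10 are named in the submitters' processing notes; not given in the sources used here are the annotation, the counter, its strand setting and its handling of multi-mapping reads, so reads of paralogues and overlapping genes may be shared. Counts were tested with edgeR 4.0.16 (R 4.3.3): filterByExpr, TMM scaling and the quasi-likelihood test on all 9 libraries, with Benjamini-Hochberg adjustment over 14168 genes at 0.05. CPM are TMM-scaled. The members and gene lists were chosen with earlier results of these data known. Named genes are the 9 members, the 3 nearest genes of each, and in each list the highest gene per length plus those with a called log2 change of at least 2, up to 5 a list; 2 genes that this rule names are not reported here. In marker lists the highest and lowest may be named. Hyal5, Hyal6, Aim1l, Actg2, Akr1b7, Gpx5, Gm44254 and Bsph2-ps fall outside the rule and were named after the values were seen. Alternatives were DESeq2 1.42.0, limma-trend 3.58.1 on log2(RPKM + 1), other scalings, no filter, the 2 compared segments only, a replicate block and leaving out each library. The test was also run on simulated data. Depth was 2600061 to 6076479 counts per library, where 1 count is 0.155 to 0.375 CPM; intervals and floors of 3 counts cover counting error only.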

Additional observations from a re-analysis of the deposited data

How the results depend on the processing

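All counts of calls over all genes stayed within 1.5 times of the values used here under every alternative run. With the replicate number as a block the 3 comparisons gave 8446, 5946 and 8089 calls in place of 8173 (corpus and caput), 5552 (cauda and corpus) and 7745 (cauda and caput). To see whether replicate numbers pair libraries, each gene's segment mean was first taken off its log2 CPM. Same-numbered libraries of different segments then correlated between -0.045 and 0.239, over 0.1 in 5 of 9 pairs. This is short of every pair, so the numbers were not taken to pair libraries. Without that step, libraries of different segments correlated between 0.731 and 0.921. With the segment means taken off, a library correlated best with its own number among the 3 libraries of another segment in 14 of 18 matches. This is a hint from the data that some numbers may be shared, not part of the stated design. On log2(RPKM + 1), 41.1% of corpus against caput calls were higher, in place of 51.1%; without a scaling factor the share was 56.6%. Among the log2 changes that were refitted (all comparisons of Cd52, Clu, Mfge8, Cuzd1 and Itm2b, and cauda against corpus of Cwh43 and Bsph2), no called direction reversed; the other folds of Cwh43, Bsph1 and Bsph2 rest on pooled counts and were not refitted. Itm2b between corpus and caput was -0.03 on RPKM in place of 0.12, and Mfge8 between cauda and corpus was -1.41 in place of -1.53. Called fibronectin type II genes (corpus and caput) were 5 with the replicate block and 5 on RPKM in place of 3. With no filter on low counts, 8 CUB or zona pellucida genes were called in place of 5 (corpus and caput), and 4 hyaluronan genes in place of 2 (cauda and caput), where more genes were tested. GPI synthesis calls (cauda and corpus) were 3 on RPKM and 3 with DESeq2 in place of 8, and 4 to 9 with single libraries left out; between cauda and caput they were 9 to 14 in place of 14. ITM2 calls (cauda and corpus) were 4 to 7 in place of 7. Apart from the filter, the cause was not tested. Depth limits Spam1, Bsph1 outside the caput and Cwh43 and Bsph2 in the caput, where counts were at or under 3 a segment.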

Other observations

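Clu was not the only gene of the lists used here with a corpus trough. Of the 106 genes tested in the 9 pathway lists, 16 were lower in the corpus than in the caput and higher in the cauda than in the corpus, both by edgeR's quasi-likelihood test. This is 15.1% of them, beside 8.68% of all 14168 tested genes (1230), and nothing particular to the lists is read from it. Among them Dab2, an adaptor of receptor-mediated endocytosis, was at 748.4, 130.9 and 347.7 CPM in caput, corpus and cauda, and Lrpap1, a chaperone of megalin and related endocytic receptors, at 228.8, 66.5 and 330.7 CPM. These genes were picked after their values were seen. Of 7 smooth muscle markers, 2 were lower in the corpus than in the caput (28.2% of all tested genes were). All 7 were higher in the cauda than in the corpus (18.8% of all tested genes were). Without Actg2, which was at 1243 CPM in the caput and 17.2 CPM in the corpus, the caput and corpus sums overlapped (665 to 991.3 and 255.7 to 804.1 CPM). Their part in these values was not tested.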
